A study of Mus musculus with 44 samples.

Results

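The genes of MHC class I antigen presentation and of the immunoproteasome were followed in the back skin of mice injected with bleomycin, a DNA-damaging drug that causes skin fibrosis. The set held 10 genes, chosen by their function and with earlier results of these data known: H2-K1, H2-D1, B2m, Tap1, Tap2, Tapbp, Psmb8, Psmb9, Psmb10 and Nlrc5. They were 10 of 43411 genes in the deposited table, and all 10 were among the 17037 genes tested. RNA-seq was performed on skin from 44 wild-type female C57Bl/6 mice, each 8 weeks old at the start. Injections were daily and subcutaneous, 100 µL each, with bleomycin at 1 U/mL per the labels (a legend of the study names a lower concentration). The 5 groups were saline (10 mice), bleomycin for 2 weeks (10 mice), bleomycin for 4 weeks (10 mice), and bleomycin for 4 weeks followed by 6 weeks (6 mice) or 10 weeks (8 mice) without treatment. The recovery mice were older at harvest than the mice given bleomycin for 2 or 4 weeks, so age and recovery cannot be told apart. The age of the saline mice at harvest is not given in the sources used here, so comparisons with saline may also differ in age. No group carried a transgene or a mutation.

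MHC class I molecules display peptides from inside the cell to cytotoxic T cells, and nearly every nucleated cell carries them. Each consists of a heavy chain, encoded in this strain by H2-K1 and H2-D1, and the light chain beta-2 microglobulin, encoded by B2m. Peptides are cut by the proteasome, pumped into the endoplasmic reticulum by the transporter TAP (Tap1 and Tap2) and placed on the heavy chain with the help of tapasin (Tapbp). Under interferon the catalytic subunits of the ordinary proteasome are replaced by those encoded by Psmb8, Psmb9 and Psmb10, which gives the immunoproteasome. Nlrc5 encodes a transactivator of MHC class I genes.

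In the GENCODE annotation of GRCm38 (mm10), 7 of the 10 genes lay on chromosome 17 between positions 33915899 and 35267499, the MHC region. Psmb9, Tap1, Psmb8 and Tap2 followed each other within 34335 bases. Psmb9 and Tap1 start head to head on opposite strands, and their gene models overlapped by 212 bases. B2m lay on chromosome 2, and Psmb10 and Nlrc5 on chromosome 8.

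The RefSeq table of GRCm38.p6 held promoters for 8 of the 10 genes. The 250 bases before the RefSeq start were searched on both strands for an interferon-stimulated response element (GAAA and GAAA with any 2 bases between them), an interferon regulatory factor core (AANNGAAAC), an NF-kappaB site and a Y box (CCAAT), the last a part of the class I enhancer module. The first and second motif can overlap each other. Of 32851 promoters, 2.98% held the response element, 4.95% the core, 3.9% the NF-kappaB site and 33.8% the Y box. Among the 8 genes, 1 promoter held the response element, 2 the core, 3 the NF-kappaB site and 6 a Y box. The promoters of the heavy chains and of the light chain are shown because they share NF-kappaB and interferon motifs, and that of Tap1 because it lies between Tap1 and Psmb9. Capitals mark motif matches, in either orientation.
H2-K1 promoter (chr17:34000348-34000597, minus strand): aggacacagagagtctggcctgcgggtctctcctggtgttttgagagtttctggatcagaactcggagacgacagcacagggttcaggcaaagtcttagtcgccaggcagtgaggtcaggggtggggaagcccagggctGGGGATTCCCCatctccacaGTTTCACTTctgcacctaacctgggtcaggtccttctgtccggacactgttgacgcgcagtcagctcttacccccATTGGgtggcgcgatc
H2-D1 promoter (chr17:35262844-35263093, plus strand): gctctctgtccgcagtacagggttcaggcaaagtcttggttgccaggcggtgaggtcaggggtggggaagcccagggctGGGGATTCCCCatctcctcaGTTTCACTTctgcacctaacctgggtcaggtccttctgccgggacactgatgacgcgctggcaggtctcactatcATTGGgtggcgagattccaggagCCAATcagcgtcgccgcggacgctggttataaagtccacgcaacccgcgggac
B2m promoter (chr2:122147437-122147686, plus strand): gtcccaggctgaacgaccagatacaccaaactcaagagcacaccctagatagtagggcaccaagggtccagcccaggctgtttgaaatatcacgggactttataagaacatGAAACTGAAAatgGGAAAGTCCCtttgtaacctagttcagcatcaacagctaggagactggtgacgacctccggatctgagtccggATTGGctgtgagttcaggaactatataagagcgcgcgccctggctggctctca
Tap1 promoter (chr17:34187306-34187555, plus strand): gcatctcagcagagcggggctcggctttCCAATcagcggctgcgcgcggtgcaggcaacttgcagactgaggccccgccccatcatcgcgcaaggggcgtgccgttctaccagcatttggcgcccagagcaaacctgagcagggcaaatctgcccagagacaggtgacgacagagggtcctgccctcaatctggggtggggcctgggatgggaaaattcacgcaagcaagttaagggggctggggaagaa
In H2-K1 the interferon core began at position -91 from the start and 2 overlapping NF-kappaB matches at -111 and -110. H2-D1 held the same run of letters for both motifs, and B2m held the response element in place of the core. The window of Tap1 shared 225 bases with that of Psmb9, which lay on the other strand, and its 1 match was the Y box common to both. Tapbp held Y boxes, and the windows of Psmb8 and Psmb10 held no match to these letters. A match is a description of the sequence and not a mapped site.

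Between 8509094 and 15285577 reads per mouse were assigned to genes (median 11310008). Values are the deposited normalized counts, that is reads divided by one size factor per mouse, and they are compared between groups for the same gene. The median correlation of a mouse with its own group was lowest for bleomycin 2 weeks mouse 2 (0.9378) and saline mouse 1 (0.9421), was 0.9473 and 0.9493 in the next mice, and reached 0.9848. Results that rest on the lowest 2 are given with and without them. The 5 keratinocyte markers were expressed in every mouse (summed level 108436 to 234076), and fat cell and muscle markers were present in all groups too.

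A gene was called when its Benjamini-Hochberg adjusted p in limma was below 0.05 and its fold change above 1.5. Bleomycin raised most of these genes. At 2 weeks 8 of 10 were called higher than in saline, against 9.3% of all genes tested, and at 4 weeks 7 of 10 against 10.5%. None was called lower, where 7.43% and 7.37% of all genes were. By the adjusted p alone 9 of 10 were higher at both times, against 17.4% and 18.4% of all genes. Without saline mouse 1 and bleomycin 2 weeks mouse 2 the full criteria called 8 genes at 2 weeks, with log2 fold changes of 0.60 to 0.98, and 5 at 4 weeks. After 6 and 10 weeks of recovery 0 of 10 were called in either direction, where 3.33% and 2.05% of all genes were called higher and 1.71% and 0.998% lower. At an unadjusted p below 0.05 there were 1 and 0 genes, and the share of all genes at that threshold was not counted. The edgeR and DESeq2 fits also called 0. The median log2 fold change of the 10 genes was 0.91 at 2 weeks, 0.64 at 4 weeks, 0.22 after 6 weeks of recovery and -0.05 after 10 weeks, while the median over all genes tested lay within 0.003 of 0 in each of these comparisons. All 4 comparisons share the saline mice. In bulk skin, more cells that carry a transcript and more transcript per cell cannot be told apart.

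**Figure D1:**
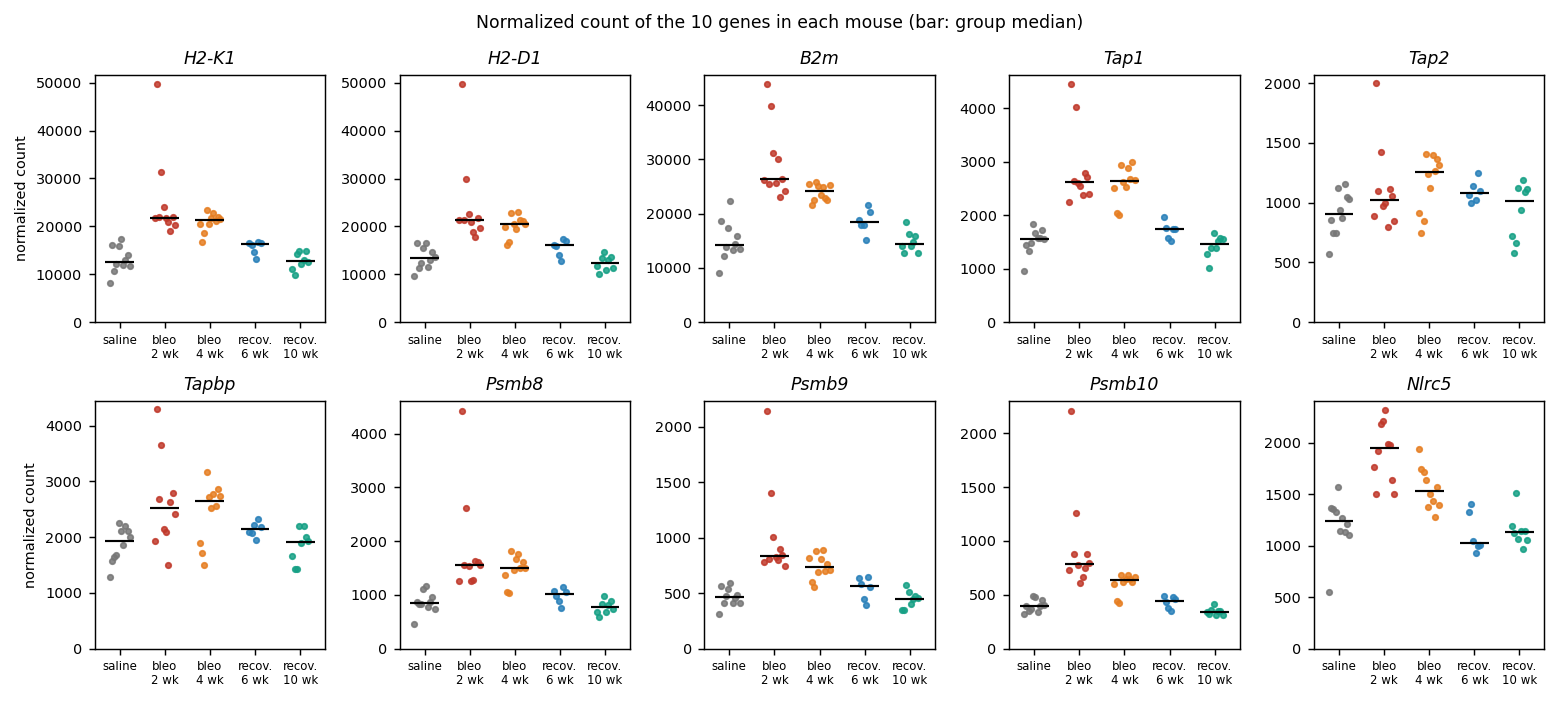
Normalized count (y axis, linear, from 0) of each of the 10 genes in each of the 44 mice, with 1 panel per gene, the 5 groups on the x axis and a bar at the group median. All 10 mice at 2 weeks lay above every saline mouse for 7 of the genes, and 1 mouse at 2 weeks reached 49620.1 for H2-K1 and 4414 for Psmb8.

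The heavy chain gene H2-K1 ranged from 8269 to 17296 normalized counts in saline skin (median 12642) and from 18976 to 49620.1 at 2 weeks (median 21782). All 10 mice at 2 weeks lay above every saline mouse. At 4 weeks it ranged from 16816 to 23363 (median 21284), with 9 of 10 mice higher than any saline mouse. H2-K1 rose by a log2 fold change of 0.91 ± 0.12 (SE) at 2 weeks (adjusted p = 1.03e-07, limma) and 0.70 ± 0.12 at 4 weeks (adjusted p = 1.59e-05). After 6 weeks of recovery it ranged from 13119 to 16707 (median 16318) and after 10 weeks from 9858 to 14883 (median 12861), and every recovered mouse lay within the saline range (all but 1 mouse at 10 weeks when saline mouse 1 is left out).

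H2-D1, the other classical heavy chain of this strain, ranged from 9641 to 16647 in saline (median 13347), from 17732 to 49733 at 2 weeks (median 21388) and from 16105 to 22932 at 4 weeks (median 20462). The 2-week mice did not overlap with saline, and 9 of 10 mice at 4 weeks lay above every saline mouse. Its log2 fold change was 0.80 ± 0.12 at 2 weeks (adjusted p = 9.11e-07) and 0.59 ± 0.12 at 4 weeks (adjusted p = 0.000147). The second value is at the edge of the fold criterion, and without saline mouse 1 it was 0.54 and no longer called. In recovery H2-D1 ranged from 12745 to 17436 (median 16055) at 6 weeks and from 9980.2 to 14567 (median 12355) at 10 weeks.

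B2m, whose product pairs with every class I heavy chain, was the most abundant of the 10 genes per length of transcript, with a saline median of 16459 normalized counts per kilobase of exon, against 5175.1 for H2-D1 and 4302.8 for H2-K1. B2m ranged from 9056 to 22429 in saline (median 14155), from 22997 to 43905 at 2 weeks (median 26307) and from 21585 to 25935 at 4 weeks (median 24154). The lowest mouse at 2 weeks was above the highest saline mouse. B2m rose by 0.98 ± 0.11 on the log2 scale at 2 weeks (adjusted p = 3.01e-09) and by 0.71 ± 0.11 at 4 weeks (adjusted p = 3.18e-06). In recovery it ranged from 15139 to 21588 (median 18454) at 6 weeks and from 12746 to 18527 (median 14438) at 10 weeks. All 6 mice at 6 weeks were above the saline mean, and the difference of 0.34 (95% confidence interval 0.07 to 0.61) did not pass the adjusted test (adjusted p = 0.0964).

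**Figure D2:**
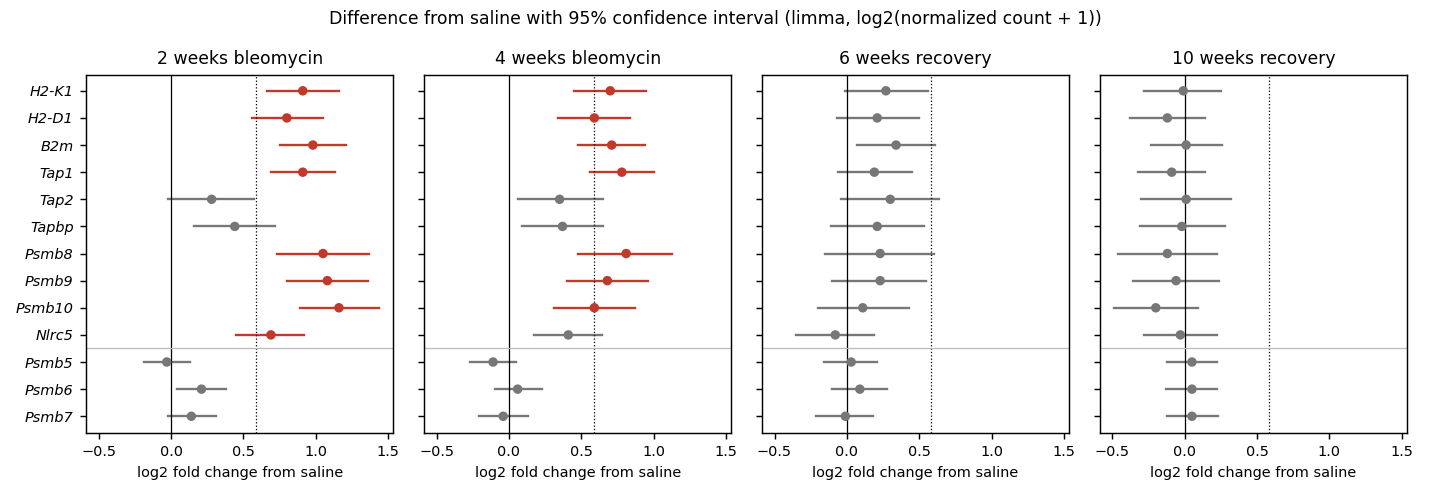
Log2 fold change from saline (x axis) with its 95% confidence interval for the 10 genes and, below the grey line, the constitutive proteasome subunits Psmb5, Psmb6 and Psmb7, in 1 panel per group. Red marks the 8 genes called at 2 weeks and the 7 called at 4 weeks, the dotted line marks a fold change of 1.5, and no gene is red in the recovery panels.

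The subunits of the peptide transporter differed in their response. Tap1 ranged from 956 to 1841 normalized counts in saline (median 1564), from 2241 to 4459.6 at 2 weeks (median 2628) and from 2011 to 3007 at 4 weeks (median 2648). It was the 1 gene of the set whose mice did not overlap with saline at both times. The background for such separation was 3.44% of all genes at 2 weeks (7 of the 10 genes) and 4.31% at 4 weeks (1 of 10). Tap1 rose by 0.91 ± 0.11 at 2 weeks (adjusted p = 4.65e-09) and 0.78 ± 0.11 at 4 weeks (adjusted p = 1.55e-07). It ranged from 1512 to 1965 after 6 weeks of recovery (median 1740.4) and from 1010.2 to 1672 after 10 weeks (median 1457).

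Tap2, which encodes the partner of Tap1, ranged from 572 to 1153 in saline (median 903), from 797 to 2000.3 at 2 weeks (median 1023) and from 744 to 1411 at 4 weeks (median 1253). The groups overlapped, with 2 of 10 and 6 of 10 mice above every saline mouse. Its log2 fold change of 0.28 at 2 weeks (95% confidence interval -0.02 to 0.57, adjusted p = 0.141) and 0.35 at 4 weeks (0.06 to 0.65, adjusted p = 0.0535) did not pass the test. In recovery it ranged from 996 to 1252 (median 1079.5) and from 575 to 1188 (median 1014).

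The difference between the subunits was then tested as the log2 ratio of Tap1 to Tap2 within a mouse, a comparison chosen after the values were seen. The ratio ranged from 0.45 to 1.00 in saline (median 0.75), from 1.16 to 1.58 at 2 weeks (median 1.37) and from 1.02 to 1.45 at 4 weeks (median 1.11). All 10 mice at each time lay above every saline mouse. The mean ratio was higher by 0.63 at 2 weeks and by 0.43 at 4 weeks (two-sided permutation test, adjusted p = 4e-05 for both over 4 tests, from the smallest p that 100000 resamples can give). At 6 and at 10 weeks of recovery it differed by -0.10 (adjusted p = 0.286 for both, exact permutation test). Without saline mouse 1 and bleomycin 2 weeks mouse 2 the first 2 differences were 0.66 and 0.43. At 4 weeks the ratio was highest in mice 1, 2 and 3 (1.45, 1.454 and 1.254, against 1.019 to 1.174 in the rest of the group). Genes of high GC content were low in these mice, as described below. The part of GC content in the ratio was not tested. The transcripts of Tap1 and Tap2 shared 0.442% and 0.655% of their 50-base words, and antisense genes overlap Tap2, whose share of the Tap2 count was not tested.

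Tapbp ranged from 1287 to 2259 in saline (median 1928), from 1508 to 4294 at 2 weeks (median 2526) and from 1504 to 3168 at 4 weeks (median 2640.1). Its mice overlapped with saline at both times, with 6 of 10 and 7 of 10 mice above every saline mouse. Its log2 fold change of 0.44 ± 0.14 at 2 weeks (adjusted p = 0.0103) and 0.37 ± 0.14 at 4 weeks (adjusted p = 0.0316) passed the adjusted p and not the fold criterion. The 2-week value was 0.30 without saline mouse 1 and bleomycin 2 weeks mouse 2 and did not pass (adjusted p = 0.0685). In recovery it ranged from 1950.2 to 2319.9 (median 2142) and from 1423 to 2205 (median 1913).

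In 3 of the 10 mice at 4 weeks (mice 1, 2 and 3) Tapbp was 1895.9, 1711.9 and 1504.5 and Tap2 was 915.7, 744.4 and 842.7, the lowest 3 values of both genes in that group. Mice 1, 2 and 3 also had the lowest 3 values of H2-K1, Tap1, Psmb8 and Psmb10. For H2-D1, B2m and Psmb9 they were not the lowest 3, and for Nlrc5 they were the highest 3. In these mice genes of high GC content lay below the group mean (rank correlation of a gene's deviation with its GC content -0.44, -0.53 and -0.42, against 0.05 to 0.44 in the other 7). The same held after 10 weeks of recovery for mice 2 and 3 (rank correlation -0.55 and -0.57), which had the lowest Tap2 (575.2 and 660.1) and Tapbp (1433.0 and 1422.9) of their group. At 2 weeks mice 1, 5 and 7 (-0.37, -0.47 and -0.43) had Tapbp at 1921.4, 2137.6 and 1507.6, below the group median. Their Tap2 was 888.9, 971.7 and 796.8, but mouse 10 (0.11) had 843.9. In saline mouse 2 (-0.35) had Tap2 at 855.3 and Tapbp at 1563.3, yet mouse 1 (0.03) had the lowest of both (572.3 and 1286.5). After 6 weeks of recovery mouse 3, with the lowest rank correlation (-0.18), had Tap2 at 1143.2 and Tapbp at 2224.1, above the group medians. The pattern thus did not hold in every group. The part of GC content in the result was not tested beyond 1 fit with GC and transcript length scores as covariates. In it Tap2 passed the adjusted p at 2 weeks (0.33, adjusted p = 0.00757) and at 4 weeks (0.29, adjusted p = 0.0172). These scores were taken from the deviations of the same mice, and more genes of all kinds passed with them. At 2 weeks 3570 genes were higher and 3656 lower by the adjusted p, against 2959 and 3104 without covariates. At 4 weeks it was 3887 and 3829, against 3138 and 3104.

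All 3 immunoproteasome genes were called higher at both times. Psmb8 ranged from 455 to 1160.1 normalized counts in saline (median 839), from 1252 to 4414 at 2 weeks (median 1561) and from 1039 to 1825 at 4 weeks (median 1501). All 10 mice at 2 weeks and 8 of 10 at 4 weeks lay above every saline mouse. Psmb8 rose by 1.05 ± 0.16 at 2 weeks (adjusted p = 1.01e-06) and 0.81 ± 0.16 at 4 weeks (adjusted p = 8.01e-05). It ranged from 757 to 1154 after 6 weeks of recovery (median 1016) and from 595 to 974 after 10 weeks (median 769). The saline minimum was set by saline mouse 1, and 4 of 8 mice at 10 weeks lay below the next saline mouse, at 736.9.

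Psmb9 ranged from 309 to 590.4 in saline (median 464), from 748 to 2142 at 2 weeks (median 832) and from 556 to 889 at 4 weeks (median 737). All 10 mice at 2 weeks and 9 of 10 at 4 weeks lay above every saline mouse. The log2 fold change was 1.08 ± 0.14 (adjusted p = 3.34e-08) and 0.68 ± 0.14 (adjusted p = 0.000121). In recovery Psmb9 ranged from 395 to 644 (median 568) and from 343 to 574 (median 450.4).

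Psmb10 had the largest log2 fold change of the set at 2 weeks. It ranged from 321 to 484 in saline (median 395), from 613 to 2207 at 2 weeks (median 786) and from 421 to 683 at 4 weeks (median 635). The 2-week mice did not overlap with saline, and 8 of 10 mice at 4 weeks lay above every saline mouse. Psmb10 rose by 1.16 ± 0.14 at 2 weeks (adjusted p = 3.46e-09) and by 0.59 ± 0.14 at 4 weeks (adjusted p = 0.000579), the latter at the edge of the fold criterion and 0.56 without saline mouse 1. Psmb10 ranged from 349 to 487 after 6 weeks of recovery (median 445) and from 309.9 to 415 after 10 weeks (median 343), where 3 of 8 mice lay below every saline mouse, and 4 of 8 when saline mouse 1 is left out.

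Each immunoproteasome subunit takes the place of a constitutive one, and Psmb5, Psmb6 and Psmb7 encode those that Psmb8, Psmb9 and Psmb10 replace. None of the constitutive 3 was called in any comparison with saline. Psmb5 differed by -0.03 at 2 weeks (adjusted p = 0.805) and Psmb7 by 0.14 (adjusted p = 0.179), while Psmb6 rose by 0.21 (adjusted p = 0.0431), below the fold criterion. The ratio of each pair was then compared within a mouse, where gene length cancels in differences between groups.

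**Figure D3:**
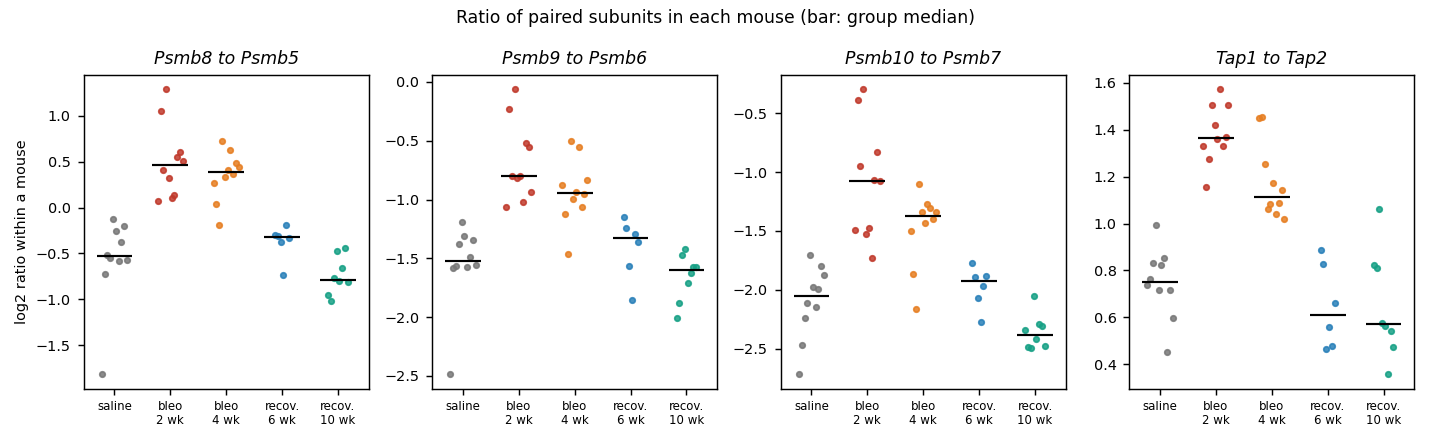
Log2 ratio within a mouse (y axis) of each immunoproteasome subunit to the constitutive subunit it replaces, and of Tap1 to Tap2, by group, with a bar at the group median. For Psmb8 to Psmb5 the saline mice lie between -1.82 and -0.12 and the 2-week mice between 0.07 and 1.29.

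The log2 ratio of Psmb8 to Psmb5 ranged from -1.82 to -0.12 in saline (median -0.53) and from 0.07 to 1.29 at 2 weeks (median 0.46). The groups did not overlap. The mean ratio was higher by 1.08 at 2 weeks and 0.92 at 4 weeks (adjusted p = 6e-05 for both, two-sided permutation test adjusted over 12 tests). Psmb9 to Psmb6 was higher by 0.87 (adjusted p = 6e-05) and 0.62 (adjusted p = 0.00024). Psmb10 to Psmb7 was higher by 1.02 (adjusted p = 6e-05) and 0.63 (adjusted p = 0.00092). Between 8 and 10 of 10 mice at each time lay above every saline mouse in these ratios.

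After 6 weeks of recovery the 3 ratios differed from saline by 0.20, 0.14 and 0.13 (adjusted p = 0.482 for each, exact permutation test). After 10 weeks they differed by -0.17, -0.11 and -0.26 (adjusted p = 0.482, 0.482 and 0.0843, exact permutation test). Without saline mouse 1, which had the lowest value of all 3 ratios in its group, and bleomycin 2 weeks mouse 2 the 10-week differences were -0.31, -0.21 and -0.32 and all 3 passed (adjusted p = 0.0125, 0.0285 and 0.01, exact permutation test). Leaving out saline mouse 1 alone gives the same 3 values by construction, since bleomycin 2 weeks mouse 2 is in neither group of these tests.

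Nlrc5 ranged from 547 to 1575 in saline (median 1242), from 1502 to 2320.4 at 2 weeks (median 1952) and from 1280.1 to 1943 at 4 weeks (median 1537). All 10 mice at both times lay above the saline mean, and 8 of 10 and 4 of 10 above every saline mouse. Nlrc5 rose by 0.69 ± 0.12 at 2 weeks (adjusted p = 7.5e-06), and its 0.41 ± 0.12 at 4 weeks passed the adjusted p (0.00515) and not the fold criterion. Without saline mouse 1, at 547 the lowest, the 2-week value was 0.57 and no longer passed the fold criterion. Nlrc5 ranged from 927 to 1411 after 6 weeks of recovery (median 1025) and from 964 to 1513 after 10 weeks (median 1136), above the lowest saline mouse, which was saline mouse 1 at 547. Apart from that mouse the saline minimum was 1106.7, and 4 of 6 mice at 6 weeks and 3 of 8 at 10 weeks lay below it.

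The course from treatment to recovery was tested in the same fit. From 2 to 4 weeks of bleomycin 0 of 10 genes were called (1.49% of all genes were called higher and 0.863% lower). At an unadjusted p below 0.05 there were 4, and the share of all genes at that threshold was not counted. Psmb10 fell by 0.57 ± 0.14 on the log2 scale (adjusted p = 0.00908, passed as lower by 2.55% of all genes), just short of the fold criterion, and the edgeR and DESeq2 fits called it at -0.66. Set against 4 weeks of bleomycin, the skin after 6 weeks of recovery had 8 of 10 genes lower by the adjusted p (13.4% of all genes), and Tap1 was called, at -0.59 ± 0.12 (adjusted p = 0.00043, 7.14% of all genes called lower). Tap2 (-0.06, adjusted p = 0.847) and Tapbp (-0.16, adjusted p = 0.512) did not pass. Leaving out 1 mouse gave 0 to 2 calls.

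Against 2 weeks of bleomycin 8 genes were called lower after 6 weeks of recovery (8.21% of all genes) and 8 after 10 weeks (8.78%). The first count was 5 without saline mouse 1 and bleomycin 2 weeks mouse 2. Against 4 weeks of bleomycin 7 were called lower after 10 weeks (9.1%). Between 6 and 10 weeks of recovery 0 were called (0.0176% of all genes higher and 0.0704% lower), and edgeR and DESeq2 also called 0. At an unadjusted p below 0.05 there were 3, and the share of all genes at that threshold was not counted.

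In the order of group means, 9 of the 10 genes were highest at 2 weeks and next at 4 weeks, with the recovery and saline groups below. Tap2 was highest at 4 weeks, and none of the steps between its neighbouring groups passed the test. The step from 2 to 4 weeks passed the adjusted p for Psmb10 only. The next step down, from 4 weeks to the group below it, passed for all genes but Tap2 and Tapbp, and no step below that passed for any of the 10.

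The genes also varied together from mouse to mouse within a group. Each mouse's deviation from its group mean was taken for every gene, and the Pearson r of each gene with the mean of the other 9 was 0.76 to 0.96 for all but Nlrc5. Nlrc5 stood at 0.12. Without saline mouse 1 and bleomycin 2 weeks mouse 2 the values were 0.64 to 0.93 and 0.00. These are descriptions over 44 mice, whose genes share a library and its depth.

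**Figure D4:**
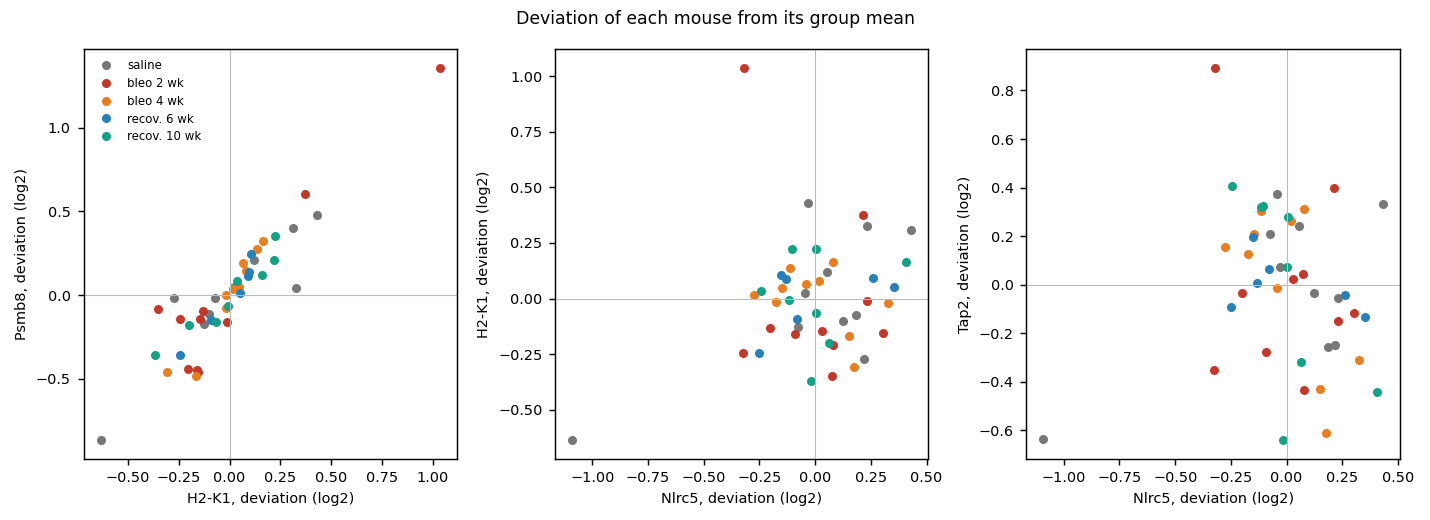
Deviation of each of the 44 mice from its group mean (log2) for pairs of genes, coloured by group. Psmb8 rises with H2-K1 across the mice in the left panel, while in the middle and right panels H2-K1 and Tap2 show no such rise with Nlrc5, whose lowest point is saline mouse 1.

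The relation of Nlrc5 to each of the other 9 genes was tested on these deviations. Pearson r ranged from -0.11 (Tapbp) to 0.36 (B2m) and Spearman's rho from -0.31 to 0.24, and none passed (lowest adjusted p 0.472 for r and 0.256 for rho, two-sided permutation test within groups over 9 relations). Without the mice farthest from the Nlrc5 median, saline mice 1 and 5, r ranged from -0.46 to 0.06. Within saline alone r was 0.47 to 0.82 over 10 mice, and -0.26 to 0.24 over the 9 mice without saline mouse 1. At 4 weeks it was -0.67 to -0.08. At 4 weeks Nlrc5 was 1942.8, 1750.4 and 1720.5 in mice 1, 2 and 3, the highest 3 of the group. In the same mice Tap2, Tapbp, H2-K1, Tap1, Psmb8 and Psmb10 were lowest.

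The 8 other genes whose deviations were most like the mean of the set were H2-T22 (r = 0.98), H2-T23 (0.95), H2-Q4 (0.92), Litaf (0.91), Il2rg (0.91), Arhgdib (0.90), Nkg7 (0.89) and Coro1a (0.89), over 44 mice. Without saline mouse 1 and bleomycin 2 weeks mouse 2 r was 0.95, 0.90, 0.87, 0.85, 0.84, 0.81, 0.86 and 0.81. Their ranks were then 1, 2, 5, 7, 9, 17, 6 and 19, so Il2rg, Arhgdib and Coro1a were no longer among the first 8. Coro1a is also 1 of the leukocyte markers below, and Il2rg and Nkg7 are likewise known as genes of lymphocytes. H2-T22, H2-T23 and H2-Q4 are class I genes too. Of the 50-base words of the H2-K1 transcripts 9.63% occur in other genes' transcripts, most in H2-Q10 and then H2-D1. For H2-D1 it was 12.8%, most in H2-Q1 and then H2-K1. The share with H2-T22, H2-T23 and H2-Q4 was not counted separately. How reads in such stretches were assigned is not given in the sources used here.

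Other genes of the pathway were counted by list. Of all genes tested, 9.3% were called higher and 7.43% lower at 2 weeks, and 10.5% and 7.37% at 4 weeks. Among 15 tested nonclassical and class I-like genes 9 were called higher and 1 lower at 2 weeks, and 8 and 1 at 4 weeks. H2-T24 ranged from 10.9 to 114 normalized counts in saline and from 176 to 393 at 2 weeks, a log2 fold change of 2.46 ± 0.23 (adjusted p = 1.07e-11). H2-T10 and H2-T22 rose by 1.25 and 1.14 at 2 weeks. The list's median log2 fold change was 0.93 at 2 weeks and 0.66 at 4 weeks.

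Other parts of the machinery were counted in the same way, against the same shares (9.3% and 10.5% higher, 7.43% and 7.37% lower). In lists this small, 0 or 1 gene called is near these shares. Of 12 genes for peptide loading and trimming 0 were called higher at either time, and Lap3, an aminopeptidase, was called lower (-1.23 ± 0.21 at 4 weeks, adjusted p = 6.44e-06). By the adjusted p alone 2 of the 12 were higher at each time, against 17.4% and 18.4% of all genes. Lower by it were 4 at 2 weeks and 5 at 4 weeks, where 3104 of 17037 genes were lower at each time. Of the 14 constitutive 20S proteasome genes and the 17 of the 19S regulator 0 were called at either time, with list medians of 0.14 and 0.05 at 2 weeks and 0.02 for both at 4 weeks. At an adjusted p alone, 2 of the 20S genes and 3 of the 19S genes were higher at 2 weeks, against 17.4% of all genes. Of 9 proteasome activators and assembly factors, Psme1, a subunit of the PA28 activator, was called at 2 weeks (0.62 ± 0.13, adjusted p = 0.000134) and none at 4 weeks.

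Among 16 transcription factors of the pathway 5 were called higher at 2 weeks and 3 at 4 weeks, against 9.3% and 10.5% of all genes. Stat2 and Irf9, both known to act in interferon signalling, were among them. Stat2 ranged from 384 to 677 normalized counts in saline and from 909 to 2050 at 2 weeks, and rose by 1.46 ± 0.11 (adjusted p = 2.28e-14) and at 4 weeks by 1.18 ± 0.11 (adjusted p = 1.25e-11). Irf9 ranged from 403 to 655 in saline and from 1080 to 1600 at 2 weeks, and rose by 1.34 ± 0.08 (adjusted p = 2.15e-18) and at 4 weeks by 1.15 ± 0.08 (adjusted p = 2.46e-16). The groups of both genes did not overlap with saline at 2 weeks. Of 7 tested interferon signalling genes, which include kinases as well as receptor chains, 1 was called at both times. This was the receptor chain gene Ifnar2 (0.83 ± 0.14 and 0.60 ± 0.14), and 1 of 7 is near the 9.3% and 10.5% of all genes. By the adjusted p alone 5 of the 7 were higher at 2 weeks and 3 at 4 weeks, against 17.4% and 18.4% of all genes. Transcripts of Ifng, the gene of interferon gamma, were near the limit of counting, at 0 to 9.8 normalized counts in any mouse. In recovery 0 genes of these 7 lists were called against saline at either time. Of all genes 3.33% and 2.05% were called higher there and 1.71% and 0.998% lower.

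Markers of immune cells also differed between the groups, and not all in the same direction. Of all genes tested, 9.3% and 10.5% were called higher and 7.43% and 7.37% lower at 2 and 4 weeks. After 6 and 10 weeks of recovery 3.33% and 2.05% were called higher and 1.71% and 0.998% lower. All 4 leukocyte markers were called higher at 2 and at 4 weeks and 0 in recovery. Their summed level was 2143 to 5071 in saline, 6056 to 18807 at 2 weeks, 4734 to 13203 at 4 weeks, 3347 to 4429 after 6 weeks of recovery and 2811 to 4040 after 10 weeks. Of 6 macrophage markers 4 were called higher at both times (summed level 7922 to 21169 in saline, 19220 to 36169 at 2 weeks and 18042 to 33477 at 4 weeks). Of 9 T and NK cell markers 6 and 3 were called higher, with sums of 238 to 754 in saline, 528 to 1490 at 2 weeks and 538 to 940 at 4 weeks, and 2 were called lower after 10 weeks of recovery. No marker of these 3 lists was at 0 in any mouse. B and plasma cell markers were low (summed level 21 to 398 over all mice), with 3 of 5 called higher at both times and 1 in each recovery group. Their median sum was 30 in saline, 56 and 130 at 2 and 4 weeks, 179 in the 6-week recovery group and 108 in the 10-week one. Of 6 dendritic cell markers 2 were called lower at 2 weeks, 2 lower and 1 higher at 4 weeks, and 2 and 3 lower after 6 and 10 weeks of recovery. All 5 hair follicle markers tested and 3 and 1 of 5 fibroblast markers were called lower at 2 and 4 weeks, as were 1 and 2 of 4 fat cell markers. Of 4 endothelial markers 2 were called higher at both times, and 0 keratinocyte and 0 muscle markers were called. The part of these markers' changes in that of the MHC class I and immunoproteasome genes was not tested.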

How the data were processed

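RNA-seq of 44 skin biopsies was used. Per the paper's methods and the labels, TruSeq stranded mRNA libraries were sequenced, reads were aligned to mm10 with STAR 2.4.0, and the authors divided the counts by 1 DESeq2 1.12.3 size factor per mouse. The authors deposited the result as a signal: reads per gene over the size factor. Counter, annotation and strand setting are not given in the sources used here. Dividing each column by the value of 1 read gave whole reads (100.0% of values within 0.01). On these reads edgeR called 1648 genes higher and 1275 lower at 2 weeks (DESeq2 1596 and 1318).

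The main test was limma 3.58.1 with a mean-variance trend on log2(normalized count + 1). A single fit held all 5 groups and no covariate, over the 17037 genes whose mean exceeded 3. The pseudocount understates the change of low genes. A call needed an adjusted p below 0.05 and a fold change above 1.5. Ratios and relations were tested by permutation. edgeR 4.0.16 and DESeq2 1.42.0 were alternatives. The limma fit was tested on simulated data. The members and lists were chosen with earlier results of these data known. The text names all members, at most 3 called genes per list, the constitutive counterparts and the 8 genes most like the set, and Ifng, the ratio of Tap1 to Tap2, the mice with low GC-rich genes and the saline range without mouse 1 were chosen after the values were seen. P-values cover the spread between mice. Jak2 and Tchh were not used here. Results on 1 withheld gene are not reported here. Replicate numbers are shared between groups although the mice differ.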

Additional observations from a re-analysis of the deposited data

Results flagged for a closer look

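Groups of 6 to 10 mice were examined for 1 mouse far from the rest (the gap to its neighbour over the group's range). Of 70 groups 12 had such a mouse, 8 of them among the 50 groups of the 10 genes, and chance gives about 1 in 20. The groups reuse the same mice and genes that vary together, so the flags are not independent and 1 mouse can give several. Bleomycin 2 weeks mouse 2 was the highest of its group for H2-K1 (49620.1 normalized counts), H2-D1 (49733), Tap2 (2000.3), Psmb8 (4414), Psmb9 (2142) and Psmb10 (2207). Saline mouse 1 was the lowest of its group for Nlrc5 (547) and for the log2 ratios of Psmb8 to Psmb5 (-1.82) and Psmb9 to Psmb6 (-2.49). Recovery 10 weeks mouse 3 was the highest of its group for Nlrc5 (1513). Recovery 6 weeks mouse 4 was the lowest for Psmb8 to Psmb5 (-0.73), and recovery 10 weeks mouse 4 the highest for Psmb10 to Psmb7 (-2.05).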

How the results depend on the processing

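Against saline, 8 genes were called at 2 weeks and 5 to 7 at 4 weeks under each alternative that kept all criteria, and 9 at both times with no fold criterion. Leaving out 1 mouse gave 7 (without saline mouse 1) to 8 and 5 to 7. At 4 weeks H2-D1 and Psmb10 fell below the fold criterion without saline mouse 1, 3, 4 or 7 or without bleomycin 4 weeks mouse 4, 7, 8 or 9 (5 called), and also with GC and length covariates (0.52 and 0.51). H2-D1 alone did so with DESeq2 (0.58, 6 called). Without saline replicate 1 and bleomycin 2 weeks replicate 2 the 4-week count was 5.

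From 2 to 4 weeks 1 gene was called lower with no fold criterion, with GC and length covariates, with edgeR and with DESeq2 (0 to 1 with 1 mouse left out). From 2 weeks to 6 weeks of recovery 5 were called lower without the pair of mice (5 to 8 with 1 mouse left out, 5 without bleomycin 2 weeks mouse 2). From 4 weeks to 6 weeks of recovery 8 were called with no fold criterion, 2 with quantile normalization, TMM, edgeR or DESeq2, and 0 with GC and length covariates (0 to 2 with 1 mouse left out). The log2 difference of Tap2 there turned to 0.01 with the replicate block and 0.00 with the covariates. Over all genes, dropping the fold criterion raised the calls at 2 weeks from 1585 to 2959 higher and from 1266 to 3104 lower.

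The ratios after 10 weeks of recovery were -0.31, -0.21 and -0.32 without the pair of mice, and ranged from -0.31 to -0.12, -0.21 to -0.06 and -0.32 to -0.21 with 1 mouse left out. Psmb10 to Psmb7 also passed without saline mouse 2 or recovery 10 weeks mouse 4 (-0.30 for both). With saline mice left out, the r of Nlrc5 turned to -0.13 with H2-K1, -0.19 with H2-D1, -0.13 with Tap1 and -0.23 with Psmb8. The causes were not tested. The replicate block gave 8 and 7 genes called against saline. Same-numbered mice did not deviate together (78 pairs, r -0.69 to 0.38, median 0), and 4 of 44 mice correlated best with their own number.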
